A study of Mus musculus with 2 samples.

Results

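The 38 genes described here mark cells that copy their DNA or divide. They are 15 genes of S phase and 23 genes of G2 phase and mitosis, chosen as a fixed list of symbols, and all 38 were found among the 27998 genes of the count files. Before S phase a dividing cell licenses its origins of replication by loading the MCM helicase, and in S phase the helicase is activated while the sliding clamp and the enzymes of nucleotide synthesis serve replication. Many of these genes are targets of the E2F transcription factors. In G2 phase a second wave of genes, many of them with CHR and CCAAT elements in their promoters, supplies the cyclins, kinases, kinetochore and spindle proteins that drive mitosis. In tendon, proliferation is known to fall after birth while the cells go on to make collagen.

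RNA of single cells came from fore- and hindlimb tendons of mouse pups at postnatal day 7, with a wild-type library and a mutant library that each came from 2 pooled pups. The mutant pups were Tgfbr2 f/-;ScxCre, in which Cre recombinase driven by regulatory sequence of the tendon gene Scx removes the type II TGFβ receptor. The labels call the control both wild type and Het. All pups, controls included, carried the ScxGFP tendon reporter and the Ai14 Cre reporter RosaT, and the activity of ScxCre is not uniform among embryonic tendon cells. With 1 library per genotype no test was possible, and genotype, pool and library preparation cannot be told apart. All intervals given are 95% intervals that cover counting error only. The count files hold reads from the 3′ ends of transcripts, counted once per unique molecular identifier (UMI), and reads of a gene's 3′ end cannot show whether the receptor was deleted.

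The libraries held 2364 and 2592 cells, wild-type first here and in all pairs of values that follow, with medians of 3866 and 2828 UMIs per cell, and they shared 2 cell barcodes. Clusters made without cell cycle genes were named from marker genes, and each name stands for cells like that type, rebuilt here, so that classes may differ from those of the study. Fibroblast-class cells were split by Scx, the transcription factor of tendon cells, at 30 UMIs per 10,000. Scx-high cells numbered 1159 and 210, and Scx-low fibroblasts 754 and 1828. The other classes held 187 and 189 immune, 133 and 87 mural, 22 and 31 endothelial, and 88 and 80 red blood cells. Scx counts include the ScxGFP transgene where its transcript matches the gene, and the cut divides a range and not a type, with 26 Scx-high and 32 Scx-low cells of the wild-type library and 23 and 24 of the mutant library between 20 and 45 per 10,000. Over the cells of a class, the median sum of 7 tendon markers was 401 and 337 per 10,000 in Scx-high cells and 8.86 and 13.7 in Scx-low fibroblasts. That of 11 fibroblast markers, Col1a1 and Col1a2 among them, was 1399 and 474 in Scx-high cells and 397 and 404 in Scx-low fibroblasts. The Scx-high classes thus differ in their own markers, and the part of this in their CPM values was not tested. The median sum of 14 immune markers and that of 12 endothelial markers were 0 in both of these classes of both libraries. That of 12 mural markers was 2.64 and 6.36 in Scx-high cells, and over all UMIs of these cells it was 3.92 and 19.0. The part of this mural signal in the results on Scx-high cells was not tested.

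Textbooks assign short sequence words to the promoters of each phase, and these were looked up in the members. RefSeq promoter windows, 250 bases before to 50 bases after the start of a gene on GRCm38.p6, were matched for 33 of the 38 members. The E2F word, TTTCCCGC, TTTCGCGC, TTTGCCGC or TTTGGCGC on either strand, stood in a window of 6 of 13 S genes and of 1 of 20 G2/M genes, against 2.61% of all 27025 genes with a window. The CHR word, TTTGAA or TTCGAA on either strand, stood in 15 of 20 G2/M genes and in 2 of 13 S genes, against 21.7% of all genes. The CCAAT word stood in 18 of 20 and 10 of 13, against 41.1%, and all 15 G2/M windows with a CHR word also held a CCAAT word, a pair found in 8.61% of all genes. A word is a match of letters and not a shown binding site. The 6 windows that follow are shown because they hold these words, with Mcm5 and Mcm6 for S phase and Cdk1, Ccnb2, Cenpf and Cdc20 for G2/M, written 5′ to 3′ along the gene with the words in capitals. In Mcm5 and Mcm6 an E2F word on the strand of the gene overlaps an E2F word on the other strand, which gives a longer run of capitals, and in Cdk1 an E2F word at base -131 from the start accompanies CHR words at -71 and -15.
Mcm5 (chr8:75109259-75109558, plus strand): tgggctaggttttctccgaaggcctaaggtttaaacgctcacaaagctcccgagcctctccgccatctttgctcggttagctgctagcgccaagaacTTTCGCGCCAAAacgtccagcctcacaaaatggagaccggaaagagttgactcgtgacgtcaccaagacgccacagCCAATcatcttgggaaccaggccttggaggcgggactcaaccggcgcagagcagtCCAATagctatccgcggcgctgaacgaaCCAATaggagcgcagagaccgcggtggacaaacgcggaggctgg
Mcm6 (chr1:128359656-128359955, minus strand): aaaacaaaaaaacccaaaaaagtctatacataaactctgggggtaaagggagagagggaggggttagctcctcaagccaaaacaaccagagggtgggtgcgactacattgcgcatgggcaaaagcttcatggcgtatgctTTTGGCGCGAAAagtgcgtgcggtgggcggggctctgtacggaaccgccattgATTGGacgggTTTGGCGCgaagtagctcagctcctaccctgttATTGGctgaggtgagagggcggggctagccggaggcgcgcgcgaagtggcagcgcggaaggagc
Cdk1 (chr10:69352863-69353162, minus strand): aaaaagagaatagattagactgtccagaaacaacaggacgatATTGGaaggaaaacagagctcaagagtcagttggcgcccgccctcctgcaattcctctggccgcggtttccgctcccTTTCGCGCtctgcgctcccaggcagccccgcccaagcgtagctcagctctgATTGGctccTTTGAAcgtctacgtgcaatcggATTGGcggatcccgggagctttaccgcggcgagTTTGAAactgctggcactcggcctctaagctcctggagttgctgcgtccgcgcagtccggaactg
Ccnb2 (chr9:70421505-70421804, minus strand): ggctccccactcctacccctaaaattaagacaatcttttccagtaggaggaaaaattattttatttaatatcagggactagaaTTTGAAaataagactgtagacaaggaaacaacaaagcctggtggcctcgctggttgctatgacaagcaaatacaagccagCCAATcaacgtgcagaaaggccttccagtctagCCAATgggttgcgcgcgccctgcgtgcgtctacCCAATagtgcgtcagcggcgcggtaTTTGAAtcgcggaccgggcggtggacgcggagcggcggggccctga
Cenpf (chr1:189688037-189688336, minus strand): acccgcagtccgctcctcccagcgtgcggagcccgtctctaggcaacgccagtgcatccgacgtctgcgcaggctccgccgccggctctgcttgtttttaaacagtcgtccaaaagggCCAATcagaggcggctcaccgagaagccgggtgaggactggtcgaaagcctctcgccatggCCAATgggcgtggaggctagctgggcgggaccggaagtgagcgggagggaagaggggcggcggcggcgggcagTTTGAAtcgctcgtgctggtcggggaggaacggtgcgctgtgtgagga
Cdc20 (chr4:118437294-118437593, minus strand): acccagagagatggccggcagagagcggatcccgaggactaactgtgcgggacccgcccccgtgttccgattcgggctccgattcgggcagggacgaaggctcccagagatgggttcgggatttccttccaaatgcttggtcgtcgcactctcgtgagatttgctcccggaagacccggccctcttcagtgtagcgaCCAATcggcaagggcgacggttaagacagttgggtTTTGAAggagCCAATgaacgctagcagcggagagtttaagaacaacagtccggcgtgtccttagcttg

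The members were sparse in both libraries. The 15 S genes together had 2985 and 3532 UMIs, or 316 and 428 counts per 1000000 UMIs (CPM). The 23 G2/M genes had 6790 and 6153 UMIs, or 718 and 746 CPM. All members together made up 0.103% and 0.117% of the UMIs. These levels carry no correction for transcript length, because only 3′ ends were sequenced.

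Over all cells, 14 of the 15 S genes had a higher CPM in the mutant library and their sum was 1.36-fold higher (1.29 to 1.42). Their median ratio on the log2 scale was 0.38, against 0.19 over all genes counted. The class mix also differed, with Scx-low fibroblasts at 31.9% of wild-type and 70.5% of mutant cells. What part this mix had in the ratios over all cells was not tested. No member passed 2-fold in either direction, where 6.14% of 10998 genes with at least 50 UMIs were at least 2-fold higher and 3.98% at least 2-fold lower. The helicase gene Mcm6 had 19.6 and 35.8 CPM, a ratio of 1.83 (1.52 to 2.21). Pcna, the sliding clamp of DNA polymerase, had 54.4 and 83.9, a ratio of 1.54 (1.37 to 1.73). Rrm1, a subunit of the reductase that makes deoxynucleotides, had 24.1 and 37.7, a ratio of 1.56 (1.31 to 1.86). The exception was Ung, which excises uracil from DNA, with 22.6 and 14.1 and a ratio of 0.621 (0.491 to 0.782). The remaining ratios of the S genes ran from 1.09 for Mcm2 to 1.47 for Gins2, and 5 of them, those of Mcm2, Mcm4, Mcm5, Uhrf1 and Slbp, like that of Cdc6 with 26 UMIs in each library, had intervals that include 1.

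The G2/M genes showed no common direction over all cells. Their sum was at a ratio of 1.04 (1.003 to 1.075), which turned to 0.934 when the 20 most abundant genes were left out of the total and to 0.889 when every cell was thinned to 1500 UMIs. The median ratio of the 23 genes on the log2 scale was 0.12, against 0.19 over all genes counted. Cks2, which binds cyclin-dependent kinases, had 39.8 and 21.9 CPM, a ratio of 0.552 (0.459 to 0.660). Ube2c, the ubiquitin-conjugating enzyme of the anaphase-promoting complex, had 92.5 and 75.4, a ratio of 0.815 (0.735 to 0.905), and Mki67, which coats mitotic chromosomes, had 21.6 and 15.6, a ratio of 0.724 (0.577 to 0.908). On the other side, the kinetochore motor gene Cenpe had 10.6 and 15.3 (ratio 1.44, 1.10 to 1.90), and Cdk1, the kinase that starts mitosis, had 65.2 and 79.4 (ratio 1.22, 1.09 to 1.36). The plot of levels by gene shows the shift of the S genes beside the mixed directions of the G2/M genes.

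**Figure D1:**
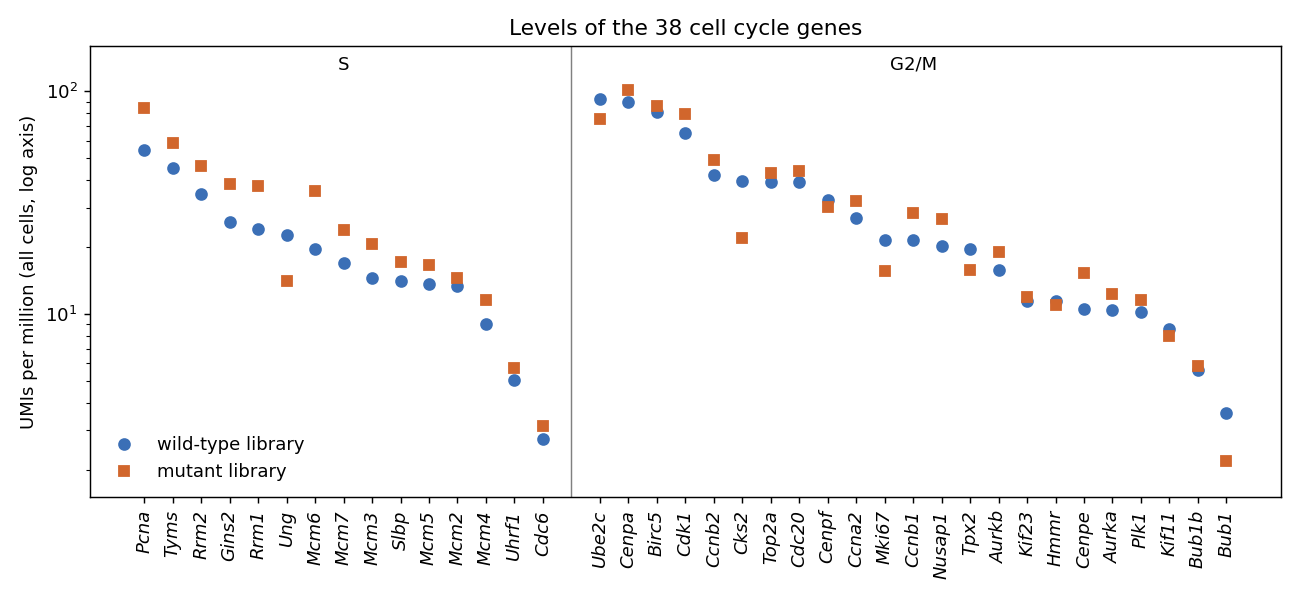
CPM over all cells (log axis) for each of the 38 genes, S genes left and G2/M genes right, with circles for the wild-type and squares for the mutant library, 1 library each. The mutant symbol lies above the wild-type symbol for 14 of 15 S genes, with Ung the exception, and for 15 of 23 G2/M genes. The median log2 ratio over all genes was 0.19, so most genes are higher in the mutant library.

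To compare cells of unequal depth, each cell was thinned at random to 1500 UMIs, and the 199 and 328 cells under that depth were not used. A cell with at least 2 UMIs over the 15 S genes was called S-positive and a cell with at least 2 over the 23 G2/M genes G2/M-positive. These are counts of transcripts and not a reading of cell division. S-positive cells were 176 of 2165 (8.13%, 7.01 to 9.36) for the wild-type and 259 of 2264 (11.4%, 10.2 to 12.8) for the mutant library. G2/M-positive cells were 179 (8.27%, 7.14 to 9.51) and 177 (7.82%, 6.75 to 9.001). The intervals of the S shares lie apart and those of the G2/M shares overlap. Before thinning the shares were 19.8% and 21.8% for S and 12.0% and 10.4% for G2/M.

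Transcripts of the G2/M genes were packed into few cells, and those of the S genes were spread out. G2/M-positive cells held a median of 9 and 8 G2/M UMIs from a median of 6 and 5 of the 23 genes, and together they held 92.7% and 93.0% of all G2/M UMIs left after thinning. S-positive cells held a median of 2 S UMIs in both libraries, which is the least the call allows, and 60.4% and 63.8% of all S UMIs. The S calls therefore rest on fewer molecules per cell. Of the S-positive cells 77 (43.8%) and 86 (33.2%) were also G2/M-positive. Among cells that were not G2/M-positive, 4.99% and 8.29% were S-positive. Across cells the S sum and the G2/M sum correlated at r = 0.37 in 2165 wild-type cells and r = 0.36 in 2264 mutant cells of equal UMI depth, a description of each library.

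**Figure D2:**
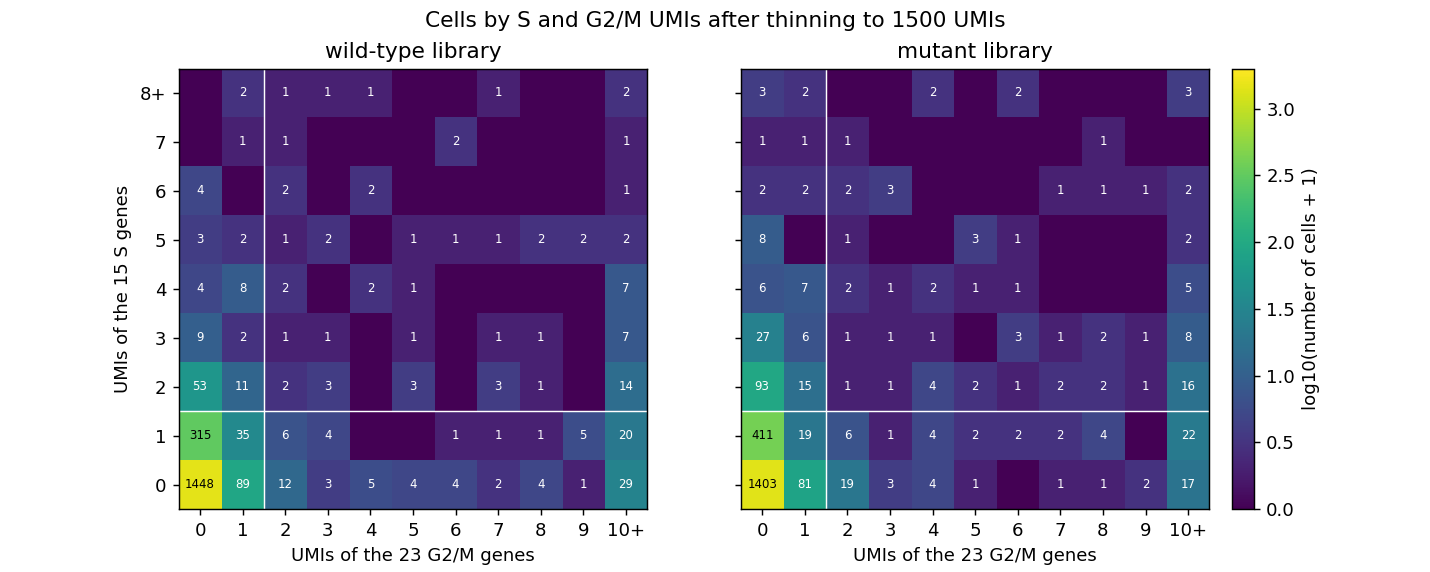
Number of cells for each pair of summed UMIs after thinning, with the 23 G2/M genes on the horizontal and the 15 S genes on the vertical axis, 1 panel per library, colour showing log10 of the count plus 1. White lines mark the limit of 2 UMIs, and 1448 wild-type and 1403 mutant cells lie at 0 for both sums, while cells with 10 or more G2/M UMIs appear in both libraries at every S level from 0 to 5.

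Single members differed in how well they marked the other genes of their phase. Birc5, a subunit of the chromosomal passenger complex, had the highest correlation with the sum of the other G2/M genes, r = 0.76 and 0.78 over the thinned cells. Cenpa, the histone of centromeres, followed in the mutant library at r = 0.71, and Ube2c in the wild-type library at 0.70. All 23 G2/M genes correlated more with the G2/M sum than with the S sum in both libraries, with the lowest values for Bub1b (0.21 and 0.28) and for Bub1 (0.27 and 0.14), 2 checkpoint kinase genes with few UMIs. Mki67 was seen in 52 and 36 thinned cells, and 98.1% and 97.2% of these were G2/M-positive without it. All 37 wild-type and 32 mutant cells with a UMI of Hmmr, a spindle protein, were G2/M-positive from the other genes. The genes differ in their counts, and the part of this in the correlations was not tested.

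Among the S genes the correlations were lower, from 0.04 for Ung to 0.31 for Tyms in wild-type cells and from 0.07 for Slbp to 0.31 for Rrm2 in mutant cells. Tyms, which makes thymidylate, and Rrm2, the regulatory subunit of ribonucleotide reductase, correlated more with the G2/M sum than with the sum of the other S genes, as did Rrm1 in the mutant library (0.28 against 0.22). For Rrm2 the pair of values was 0.28 with S and 0.40 with G2/M in wild-type cells and 0.31 and 0.43 in mutant cells. For Tyms it was 0.31 and 0.33, and 0.24 and 0.31. The MCM helicase genes and Pcna kept to the S sum, with Mcm5 at 0.27 and 0.22 and Pcna at 0.25 and 0.27, against 0.11 and 0.13, and 0.11 and 0.11, with the G2/M sum. Ung had -0.01 for the G2/M sum in both libraries, and of the cells with an Ung UMI 8.57% and 9.09% were G2/M-positive, near the shares of all cells. With the S sum Ung had 0.04 and 0.11, and 12.9% and 31.8% of its cells were S-positive from the other genes. Slbp, which binds histone mRNA, had 0.07 with the S sum and 0.02 with the G2/M sum in both libraries.

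Taken as a class, Scx-high cells of the mutant library carried the members more often than those of the wild-type library. Split by Scx level, their G2/M share was higher only from 200 Scx UMIs per 10,000 upward. Scx itself differed, with 49.0% of wild-type and 8.10% of mutant cells in the Scx-high class. The paper reports that mutant tenocytes lost ScxGFP and proposes that mutant tendon cells with ScxGFP are newly recruited. Each Scx class may thus hold unlike cells in each library. Differences between the libraries within a class need not be changes in like cells, which was not tested. Of 1075 thinned Scx-high wild-type cells 61 were S-positive (5.67%, 4.37 to 7.23), and of 193 mutant cells 27 (14.0%, 9.43 to 19.7). G2/M-positive cells were 72 (6.70%, 5.28 to 8.36) and 25 (12.95%, 8.56 to 18.5). Both pairs of intervals lie apart, that of G2/M narrowly, with limits of 8.36 and 8.56. Both ratios of shares stayed above 1.5 under the alternative depths, limits and classes, from 1.62 to 3.06 for S and from 1.56 to 2.25 for G2/M. The gap between the G2/M intervals did not hold under every alternative. They overlap without the clusters that had more chondrocyte than fibroblast or tendon markers among their leading genes. For the other alternatives the gap is not given here. The mutant values rest on 27 and 25 cells of 1 library. By EdU labelling of proliferating cells in sections, the paper found no altered proliferation rate in mutant tendons over embryonic and postnatal stages. That measure is unlike counts of transcripts in cells split by Scx.

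In Scx-low fibroblasts the intervals of the libraries overlap for both phases. S-positive cells were 65 of 706 (9.21%, 7.18 to 11.6) for the wild-type and 155 of 1655 (9.37%, 8.01 to 10.9) for the mutant library. G2/M-positive cells were 46 (6.52%, 4.81 to 8.60) and 89 (5.38%, 4.34 to 6.58). In the wild-type library the Scx-low class thus had a higher S share than the Scx-high class, with intervals that just overlap, while their G2/M shares were 6.52% and 6.70%. In the mutant library the Scx-low class was lower in both, with S shares of 9.37% against 14.0% and G2/M shares of 5.38% against 12.95%. At 2500 UMIs per cell the mutant S shares no longer had this order, with a ratio of Scx-low over Scx-high of 1.04 in place of 0.670.

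Immune and vascular cells had higher shares than wild-type Scx-high cells, with wide intervals, some of which overlap. Mutant Scx-high cells were at 14.0% for S and 12.95% for G2/M. The immune G2/M share and the endothelial S share of the mutant library were below these values, and its other immune and vascular shares above them. In the immune class 29 of 146 wild-type cells (19.9%, 13.7 to 27.3) and 30 of 109 mutant cells (27.5%, 19.4 to 36.9) were S-positive, and 15.8% (10.3 to 22.7) and 11.9% (6.51 to 19.5) G2/M-positive. The depth limit left out 41 of 187 wild-type and 80 of 189 mutant immune cells. Before thinning the immune S shares had the reverse order, with 27.8% and 22.8%. In the mural class, which holds pericytes and smooth muscle cells, 11.4% (6.36 to 18.4) and 17.3% (9.57 to 27.8) were S-positive, and 20.3% (13.6 to 28.5) and 18.7% (10.6 to 29.3) G2/M-positive. In the endothelial class 4 of 21 and 3 of 27 cells were S-positive (19.0%, 5.45 to 41.9, and 11.1%, 2.35 to 29.2). In the same class 4 of 21 and 6 of 27 cells were G2/M-positive, with intervals from 5.45% to 41.9% and from 8.62% to 42.3%. For each of these classes the intervals of the libraries overlap. The classes are small, so that in the wild-type library the Scx-high cells still made up 40.2% of all G2/M-positive cells, the Scx-low fibroblasts 25.7%, the mural cells 14.0%, the immune cells 12.8% and the endothelial cells 2.23%. In the mutant library the Scx-low fibroblasts made up 50.3%, the Scx-high cells 14.1%, the mural cells 7.91%, the immune cells 7.34% and the endothelial cells 3.39%.

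The background from free RNA was not measured for these classes, because no class that lacks the genes was of like composition. Red blood cells, which have ended division, had median depths of 5682 and 4430 UMIs per cell, against 4299 and 4505 in Scx-high cells and 3586 and 2872 in Scx-low fibroblasts. Of their 1500 thinned UMIs a median of only 38 and 26.5 lay outside 5 red blood cell markers, most of them haemoglobin genes, so that low counts of all other genes were fixed by their composition. None of 77 wild-type and none of 72 mutant red blood cells was S-positive, with intervals up to 4.68% and 4.99%. Of the same cells 2 (2.60%) and 4 (5.56%) were G2/M-positive. Tendon marker transcripts were also fewer in them than in immune cells, with 3.64 against 21.7 UMIs per 10,000 over the class in the wild-type library. Of the G2/M UMIs in red blood cells 38 of 49 and 36 of 45 were Ube2c, and without Ube2c no thinned red blood cell was G2/M-positive. Leaving Ube2c out gave G2/M shares of 6.51% and 11.9% in Scx-high cells and of 6.52% and 5.26% in Scx-low fibroblasts.

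**Figure D3:**
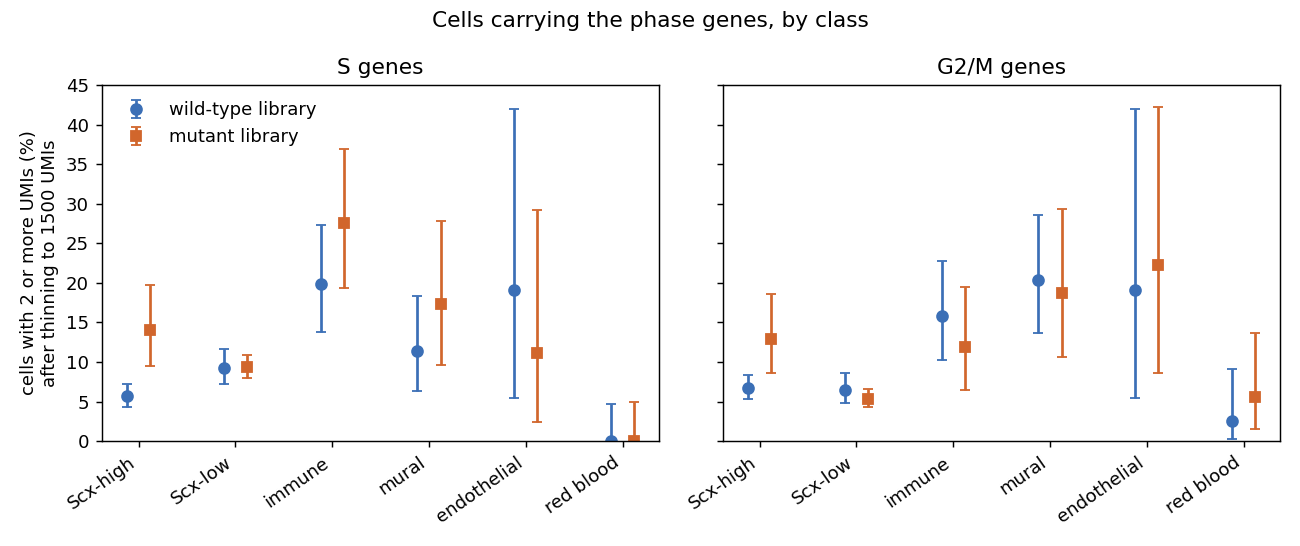
Percent of cells with 2 or more UMIs of the S genes (left) and G2/M genes (right) after thinning, by cell class, with circles for the wild-type and squares for the mutant library and bars for exact binomial 95% intervals. The Scx-high intervals of the libraries lie apart in both panels (5.67% and 14.0% for S, 6.70% and 12.95% for G2/M), narrowly for G2/M, and red blood cells are at 0 for S.

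Gene by gene, 30 of the 31 members with at least 50 UMIs over the Scx-high cells of both libraries had a higher CPM in the mutant Scx-high cells. Of these 31, 20 were at least 2-fold higher and 1 at least 2-fold lower, where 9.89% of 7320 genes passed 2-fold upward and 5.86% downward. The other 7 members, Mcm4, Uhrf1, Slbp, Cdc6, Kif11, Bub1 and Bub1b, had fewer UMIs and were not counted, and of these Slbp had 8.05 and 6.05 CPM. UMIs of 1 cell are not independent, so the intervals of these and all other ratios of summed UMIs are too narrow. The G2/M sum had 565 and 1270 CPM, a ratio of 2.25 (2.10 to 2.40), and the S sum 245 and 487, a ratio of 1.99 (1.78 to 2.21). On the log2 scale the median ratio was 1.203 over the 20 G2/M genes counted and 1.06 over the 11 S genes, against 0.25 over all genes. After thinning, which gives each cell the same weight, the ratio of the G2/M sums was 1.79 and that of the S sums 1.945.

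Among the cyclins and kinases, Ccnb1, the B-type cyclin that activates Cdk1, had 14.4 and 45.4 CPM in Scx-high cells, a ratio of 3.14 (2.11 to 4.63). Ccna2, the cyclin of S and G2 phase, had 18.2 and 48.4, and Ccnb2 32.4 and 80.7. The mitotic kinases Plk1 (6.61 and 24.2) and Aurka (7.22 and 26.2) had ratios of 3.67 and 3.63, from 24 and 26 mutant UMIs. Of the G2/M genes counted Cks2 had the ratio nearest to 1, with 29.1 and 38.3 and an interval from 0.895 to 1.90. At the centromere, Cenpa had 77.6 and 205 CPM, a ratio of 2.64 (2.21 to 3.14), and Birc5 66.9 and 167, a ratio of 2.49 (2.05 to 3.01). Cdc20, the activator of the anaphase-promoting complex, had 33.4 and 77.7.

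Among the S genes the largest ratio of Scx-high cells was that of Mcm6, with 11.8 and 48.4 CPM and a ratio of 4.12 (2.74 to 6.15). Mcm5, Gins2, another part of the replicative helicase, and Rrm1 had ratios of 3.10 each. Pcna reached 37.8 and 66.6, a ratio of 1.76 (1.31 to 2.35). Ung went the other way, with 32.8 and 15.1 and a ratio of 0.461 (0.252 to 0.784), and was the single member at least 2-fold lower.

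In Scx-low fibroblasts the G2/M genes had lower levels in the mutant library, and the interval of the S sum includes 1. Of 34 members counted, none was at least 2-fold higher and 4 were at least 2-fold lower, where 4.03% of 9221 genes passed 2-fold upward and 4.44% downward. The G2/M sum had 731 and 496 CPM, a ratio of 0.678 (0.641 to 0.718), and the S sum 385 and 368, a ratio of 0.956 (0.888 to 1.03). The 4 genes were Cks2 (39.2 and 14.7 CPM), Tpx2, a spindle assembly factor (24.5 and 9.83), Ube2c (83.7 and 38.6) and Mki67 (22.1 and 10.2). Of the 21 G2/M genes counted 20 were below 1, with Cenpe the exception at 9.81 and 11.8 CPM. The median log2 ratio of the G2/M genes counted was -0.51, against -0.04 over all genes. Cdk1 (71.8 and 60.5), Ccnb2 (41.7 and 35.6) and Cdc20 (36.4 and 32.1) had intervals that include 1.

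Of the 31 members with at least 50 UMIs in both classes, 10 were higher in mutant Scx-high cells and lower in mutant Scx-low fibroblasts with both counting intervals clear of 1, where 7.13% of 7181 genes were. No member had the reverse pattern, which 1.71% of genes had. These intervals are too narrow as well, and members carried by the same cells are not separate cases. The difference between the classes was not tested.

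**Figure D4:**
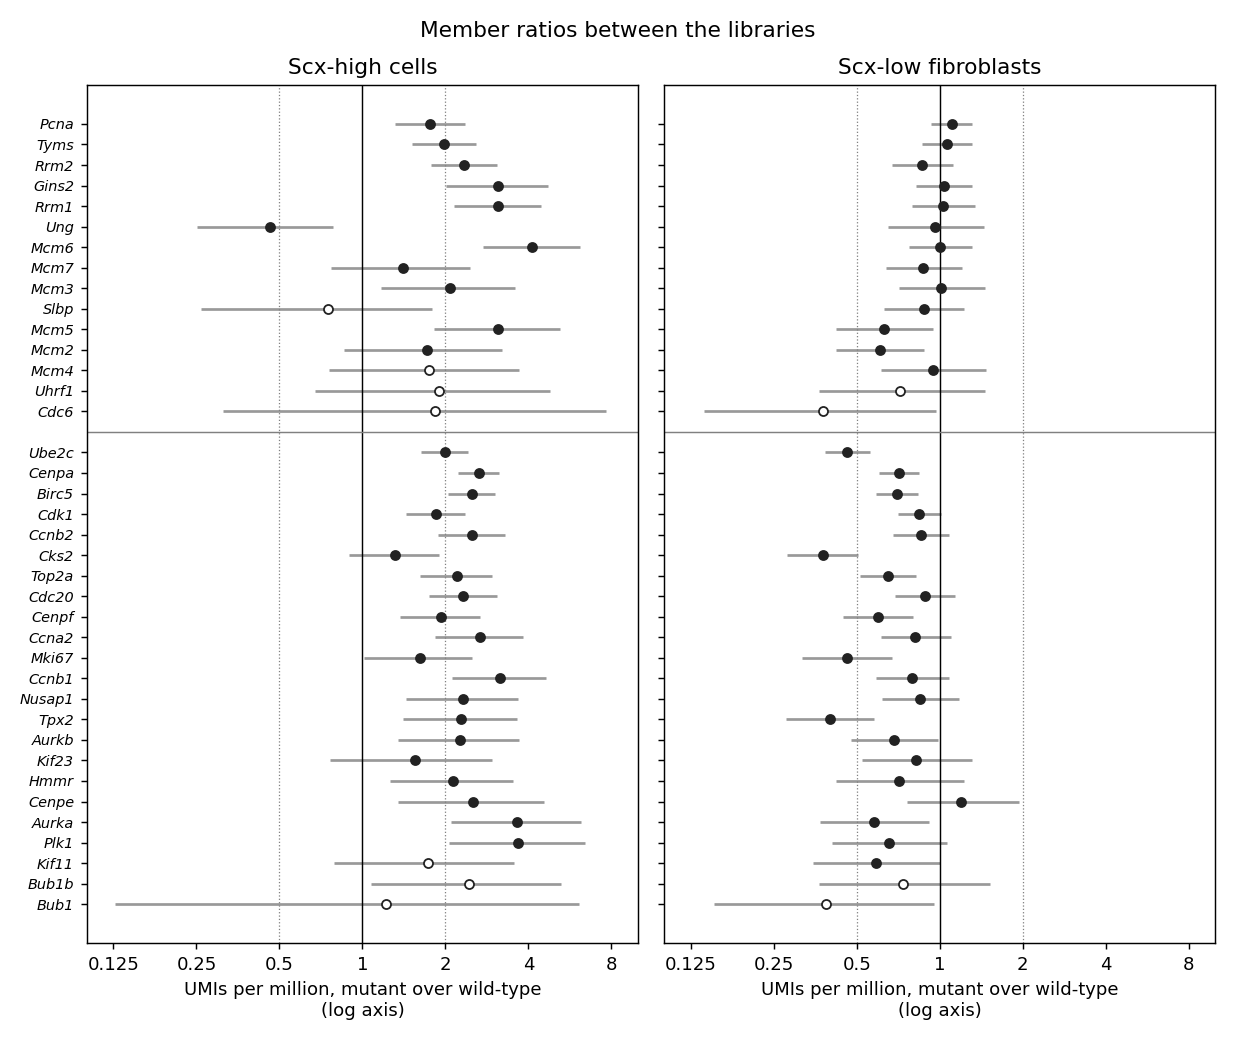
Ratio of CPM, mutant over wild-type library (log axis), for each member in Scx-high cells (left) and Scx-low fibroblasts (right), with bars for exact 95% counting intervals, open circles for genes under 50 UMIs and dotted lines at 2-fold. Of the genes counted 30 of 31 lie above 1 in Scx-high cells and 27 of 34 below 1 in Scx-low fibroblasts. The median log2 ratio over all genes was 0.25 in Scx-high cells, so most genes lie above 1 there, and -0.04 in Scx-low fibroblasts.

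Within the wild-type library, Scx-low fibroblasts had more S transcripts than Scx-high cells. The S sum was 1.57-fold higher (1.45 to 1.71) and the G2/M sum 1.29-fold higher (1.22 to 1.37), with medians of 0.90 and 0.45 on the log2 scale against 0.44 over all genes. Of 34 members 5 were at least 2-fold higher and 1 at least 2-fold lower, where 17.9% of 8513 genes passed upward and 4.95% downward, so the share of members past 2-fold is near or below that of all genes. The 5 were Gins2 (12.4 CPM in Scx-high and 39.6 in Scx-low cells), Mcm6 (11.8 and 31.5), Slbp (8.05 and 20.7), Mcm2 (8.26 and 19.97) and Mcm4 (5.78 and 11.9), and the 1 lower was Ung (32.8 and 14.0). Rrm2 had 34.5 and 34.7, with an interval of the ratio from 0.776 to 1.30.

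Within the mutant library Scx-low fibroblasts had fewer G2/M transcripts than Scx-high cells. The G2/M sum was at 0.390 of the Scx-high level (0.365 to 0.418) and the S sum at 0.756 (0.684 to 0.836). Of 33 members counted 1 was at least 2-fold higher and 17 at least 2-fold lower, where 12.0% of 8437 genes passed upward and 4.76% downward. Of those 17, 15 were G2/M genes, with Ube2c at 154 and 38.6 CPM, Cenpa at 205 and 61.4, and Hmmr at 24.2 and 6.49 in Scx-high and Scx-low cells. The others were Rrm2 (80.7 and 30.01) and Mcm5 (26.2 and 10.4), and the member at least 2-fold higher was Slbp (6.05 and 18.1), with 6 UMIs in the Scx-high cells. These ratios use the same 4 sets of cells as the ratios between the libraries and are not separate evidence.

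The Scx level of a cell went with its phase calls in the wild-type library. Among fibroblast-class cells with 30 to 100 Scx UMIs per 10,000, 21 of 115 (18.3%, 11.7 to 26.5) were G2/M-positive. The share was 9.85% (6.83 to 13.6) at 100 to 200, 4.10% (2.20 to 6.91) at 200 to 300 and 1.89% (0.695 to 4.06) at 300 or more. The S share fell over the same steps from 14.8% to 2.20%. Cells without an Scx UMI were at 4.37% for G2/M and 5.83% for S, so the highest shares lay between the extremes of Scx. G2/M-positive Scx-high wild-type cells had a median of 142 Scx UMIs per 10,000, against 238 in cells positive for neither phase.

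The mutant library showed no such fall. The G2/M share was 13.04% (6.14 to 23.3) of 69 cells at 30 to 100, 5.88% of 34 cells at 100 to 200, 15.6% (5.28 to 32.8) of 32 cells at 200 to 300 and 15.5% (7.35 to 27.4) of 58 cells at 300 or more. In this top group the interval lies above that of the wild-type library, and the S shares were 2.20% (0.890 to 4.48) and 15.5% (7.35 to 27.4). At 30 to 100 and at 100 to 200 the mutant G2/M shares were below the wild-type shares of 18.3% and 9.85%, with intervals that overlap. The S shares were 14.8% and 10.1% at 30 to 100, and 7.39% and 14.7% at 100 to 200. G2/M-positive Scx-high mutant cells had a median of 236 Scx UMIs per 10,000, against 168 in cells positive for neither. Depth moved with the calls before thinning, with medians of 5182 and 6597 UMIs in G2/M-positive and 4424 and 4466 in Scx-high cells positive for neither, and what part depth had in the Scx levels was not tested.

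**Figure D5:**
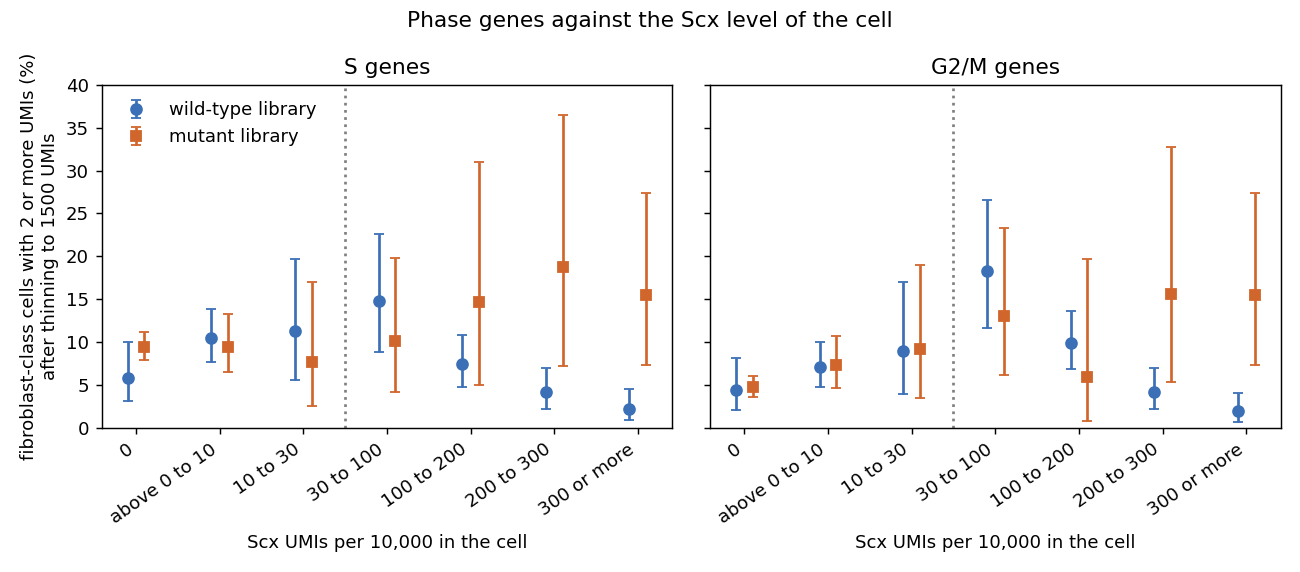
Percent of fibroblast-class cells that are S-positive (left) and G2/M-positive (right) after thinning, against the Scx UMIs per 10,000 of the cell in 7 steps, with circles for the wild-type and squares for the mutant library and bars for exact binomial 95% intervals. The dotted line is the limit of 30 between Scx-low and Scx-high. Wild-type G2/M shares go from 18.3% at 30 to 100 down to 1.89% at 300 or more, and mutant shares there are 13.04% and 15.5%.

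The Scx-high cells of each library lay in several clusters, which were made in each library alone and not matched between the libraries. In the mutant library 74 of 210 were in a cluster led by Scx, Lrrc15 and Tnc, of whose thinned Scx-high cells 14 of 63 (22.2%, 12.7 to 34.5) were G2/M-positive, and 72 in a cluster led by Wif1, Chad and Col11a2, with 9 of 69 (13.04%, 6.14 to 23.3). A further 36 were in a cluster led by Prph, Chst5 and Mstn, in which none of 33 was G2/M-positive, with an interval up to 10.6%. In the wild-type library the 5 clusters with most Scx-high cells had G2/M shares from 1.65% (0.201 to 5.84), in cells led by Nppc, Cadm4 and Cacna2d2, to 9.55% (6.01 to 14.2), in cells led by Prss35, Matn4 and Mfap4. Smaller wild-type clusters led by Lgals7, Cilp and Cox4i2 and by Chodl, Col22a1 and Cilp had 10 of 61 (16.4%, 8.15 to 28.1) and 5 of 26 (19.2%, 6.56 to 39.4). Clusters with more chondrocyte than fibroblast or tendon markers among their 10 leading genes, 2 in the wild-type library with 333 cells and 1 in the mutant library with 212, were kept in the fibroblast class. They held 148 and 183 of the wild-type Scx-high cells and 1 of the mutant Scx-high cells, so leaving them out changed almost only the wild-type side. The mutant cluster led by Wif1, Chad and Col11a2 stayed in. Without the left-out clusters the ratio of the G2/M sums in Scx-high cells was 1.78. There 11 of 29 members were at least 2-fold higher, where 9.82% of all genes counted in these cells were.

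Further genes of replication and mitosis, from lists of their own, are given next. They were counted in the same cells as the members and are not separate evidence. Of 75 further mitosis genes 33 were counted in Scx-high cells, 12 of them at least 2-fold higher in the mutant library and none lower, where 9.89% and 5.86% of all genes were, with a median log2 ratio of 0.82 against 0.25 over all genes. Of 42 further replication genes 23 were counted, 7 at least 2-fold higher and none lower against the same shares, with a median of 0.53. Dut, which keeps uracil out of DNA, had 124 and 227 CPM. In Scx-low fibroblasts 1 of 45 mitosis genes was at least 2-fold higher and none lower, below the 4.03% and 4.44% of all genes, and the median was -0.39 against -0.04 over all genes. The mitosis genes with most UMIs, Cks1b, Bub3 and Smc4, had 206 and 199, 126 and 111, and 77.4 and 63.9 there. Of 18 chromatin and tubulin genes that are high in cycling cells 3 were at least 2-fold higher in mutant Scx-high cells, against 9.89% of all genes, led by Tubb5 at 558 and 1229 CPM, beside Ranbp1 at 398 and 550 and Tuba1b at 365 and 595.

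Regulators of G1 phase went in both directions. Ccnd2, a D-type cyclin, had 321 and 147 CPM in Scx-high cells (ratio 0.460), while its partner kinase Cdk4 had 183 and 231 and Ccnd3 had 70.8 and 91.8. Cdkn1c, an inhibitor of cyclin-dependent kinases expressed from the maternal allele, had 560 and 1525 in all cells, 344 and 442 in Scx-high cells, and 1188 and 1639 in Scx-low fibroblasts. Scx-low fibroblasts, the class with the higher level, were 31.9% of wild-type and 70.5% of mutant cells. Cdkn1a, the inhibitor p21, had 61.7 and 34.3 in Scx-high cells and 176 and 63.7 in Scx-low fibroblasts. Among the 21 RB, E2F and MuvB genes none of the 6 counted in Scx-high cells and none of the 10 counted in Scx-low fibroblasts passed 2-fold. Of all genes 9.89% passed upward and 5.86% downward in Scx-high cells, and 4.03% and 4.44% in Scx-low fibroblasts. So few genes cannot be told apart from these shares. E2f1 had 17.8 and 15.1 CPM in Scx-high cells and 34.7 and 24.4 in Scx-low fibroblasts. Of 69 histone genes, most of whose transcripts are known to lack a poly(A) tail, 4 were counted in Scx-high cells and 5 in Scx-low fibroblasts. Hist1h2bc had 151.5 and 167.5 in Scx-high cells.

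Outside all lists, the 10 genes most like the summed members over the thinned cells, by the lower of the r values of the libraries among 3361 genes seen in at least 100 cells of each, were Ptma, H2afv, 2700094K13Rik, Ccdc34, Hn1, Tubb6, Dnajc9, Tagln2, Arl6ip1 and Anp32b. The chromatin protein gene Ptma had r = 0.34 and 0.32, and the histone variant gene H2afv 0.46 and 0.32. The tenth, Anp32b, had 0.25 and 0.20.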

How the data were processed

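The study's methods name 10x Genomics 3′ chemistry, Cell Ranger 2.0 (1.2.0 in the submitters' processing notes), mm10 and selection of barcodes by total UMI count. The deposited values are raw UMI counts per gene and cell, without normalization, made by the authors, and cells held 948 to 14358 and 903 to 15968 UMIs. All cells were used. Each library was clustered alone with Scanpy 1.11.5 and Leiden at resolution 2, from 2000 variable genes and 20 principal components. Cell cycle lists, histone genes and genes correlating above 0.15 with the summed members were left out. That limit and the resolution were set after clusters had been seen. A cluster needed at least 3 markers for a name. Fibroblast-like clusters with Adipoq or Krt19 among their 10 leading genes were left unnamed. Scrublet, set to 2%, called 26 and 8 doublets (1.10% and 0.309%), which stayed in. Counts were summed per class and scaled to CPM. Genes with at least 50 UMIs over both sides of a ratio were counted, and 2-fold was the limit for higher or lower. Shares have exact Clopper-Pearson and ratios exact conditional intervals. Scripts were tested on simulated counts. The members and lists were chosen with earlier results of these data known. All 38 members may be named, other lists by their 3 genes with most UMIs, and 10 genes outside the lists by likeness (r of log2 of 1 plus the thinned UMIs). Alternatives covered depth, positive limit, seed, cell filter, doublets, Scx limit, classes and scaling.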

Additional observations from a re-analysis of the deposited data

Results flagged for a closer look

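For the following genes and sums, the ratio of the mutant over the wild-type library pointed one way in Scx-high cells and the other way in Scx-low fibroblasts, with both intervals clear of 1. Each class was 1 library per genotype, so the difference was not tested. UMIs of 1 cell are not independent, so these intervals are too narrow. Over all cells, G2/M-positive cells held 92.7% and 93.0% of the thinned G2/M UMIs, so the G2/M genes below are not separate cases. By share of cells, the G2/M intervals of Scx-low fibroblasts overlap (6.52%, 4.81 to 8.60, and 5.38%, 4.34 to 6.58). The G2/M sum had ratios of 2.25 in Scx-high cells and 0.678 in Scx-low fibroblasts. The helicase gene Mcm5 had 3.10 and 0.629, and it was the single S gene of this kind. Among the G2/M genes, the chromosome proteins Mki67 and Top2a had 1.61 and 0.461, and 2.20 and 0.649. Birc5 and Aurkb, of the chromosomal passenger complex, had 2.49 and 0.700, and 2.26 and 0.683. The centromere genes Cenpf and Cenpa had 1.93 and 0.596, and 2.64 and 0.713. The spindle genes Aurka and Tpx2 had 3.63 and 0.578, and 2.28 and 0.401, and Ube2c had 1.99 and 0.461. These are 10 of the 31 members with at least 50 UMIs in both comparisons, where 7.13% of 7181 genes met the same rule in this direction.

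The ratio of Scx-low fibroblasts over Scx-high cells likewise pointed opposite ways in the wild-type and the mutant library, which was not tested either. It was 1.57 and 0.756 for the S sum and 1.29 and 0.390 for the G2/M sum. The wild-type G2/M value was near that of all genes, with median log2 ratios of 0.45 and 0.44. The wild-type ratio of G2/M shares was 0.973. These ratios rest on the same cells as those above.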

How the results depend on the processing

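Among the results that answer a comparison, 250 values under alternatives stayed close to the reported value, 12 moved and 3 reversed. Close meant inside the reported interval. For ratios of sums a move within a set fold also counted, and for counts of members a set fold alone. The ratio of S shares in Scx-high cells, mutant over wild-type, was 2.47 and ran from 1.62 to 3.06, all counted as close. Among single classes and genes 543 stayed and 63 moved. The cause was not tested for any of them. Reversal was called only for ratios whose reported interval lay clear of 1, so some ratios near 1 changed direction and count as close. The ratio of S shares in Scx-low fibroblasts, mutant over wild-type, was 1.02 and ran from 0.840 to 1.07. At 2500 UMIs per cell the ratio of S shares, Scx-low over Scx-high, in the mutant library turned from 0.670 to 1.04. The ratio of G2/M sums over all cells turned from 1.04 to 0.934 without the 20 most abundant genes and to 0.889 with thinned sums, and 1 member instead of 0 was at least 2-fold lower without those genes and with a mean over cells. In Scx-high cells the ratio of G2/M sums was 1.79 with thinned sums. It was 1.78 without the clusters that had more chondrocyte than fibroblast or tendon markers among their leading genes. There 11 instead of 20 members were at least 2-fold higher. Those clusters held 148 and 183 Scx-high cells in the wild-type library and 1 in the mutant library. Without those clusters the wild-type ratio of G2/M sums, Scx-low over Scx-high, was 1.02 instead of 1.29. The 5 members at least 2-fold higher in that comparison became 3 without the 20 most abundant genes, 8 with a mean over cells, 16 at an Scx limit of 60 and 8 with classes set per cell from markers. With those classes the members at least 2-fold lower in the mutant library went from 1 to 0 in Scx-high cells and from 4 to 2 in Scx-low fibroblasts. Thinned sums, leaving out Ube2c and leaving out the clusters with more chondrocyte markers were chosen after seeing the data. No paired analysis was possible because there was 1 library per genotype, so no replicate could be left out. The mutant Scx-high class is small, with 210 cells, of which 17 were too shallow to thin and 25 were G2/M-positive.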

Other observations

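Small classes outside the 5 compared also carried the members. Muscle-like cells had 7 of 17 (41.2%, 18.4 to 67.1) G2/M-positive cells in the wild-type and 15 of 62 (24.2%, 14.2 to 36.7) in the mutant library, and 3 of 17 and 19 of 62 S-positive cells. Schwann-like cells were named in the mutant library alone, where 6 of 43 (13.95%, 5.30 to 27.9) were G2/M-positive. Of 28 thinned cells in unnamed mutant clusters 9 (32.1%, 15.9 to 52.4) were S-positive and 5 (17.9%, 6.06 to 36.9) G2/M-positive.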
